A study of Serapias vomeracea and Serapias vomeracea
Tulasnella calospora with 6 samples.

Results

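The raised transcripts of Serapias vomeracea protocorms described here are contigs that asymbiotic tissue already expressed and that were far more abundant in mycorrhizal tissue. A contig was included when it was at least 500 bp long, stood at 1 CPM or more in each of the 3 asymbiotic libraries, and had its lowest mycorrhizal CPM at least 4 times its highest asymbiotic CPM. CPM is a contig's reads scaled to a library total of 1000000. Of 205249 contigs in the series, 26515 met the length and asymbiotic conditions, and 194 of these, 0.732%, also met the 4-fold condition. The 194 were chosen on the contrast between the groups, so their differences between asymbiotic and mycorrhizal protocorms are given as a description, without a test. They fell into 174 Trinity genes, the sets of contigs that the assembler Trinity places together because they share sequence.

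Serapias vomeracea is a terrestrial orchid. Its embryo germinates into a small swollen body, the protocorm, from which leaves and roots form later. The asymbiotic group was 3 libraries of achlorophyllous protocorms grown without a fungus on modified BM1 medium. The mycorrhizal group was 3 libraries of protocorms grown from seed sown with the fungus Tulasnella calospora on oat medium. Both were kept in darkness at 20 °C and taken at the stage called P2. Medium and fungus therefore differed together between the groups and cannot be told apart. The mycorrhizal RNA came from tissue of both organisms, while the reference was assembled from asymbiotic reads, which the series text describes as plant reads alone.

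Orchid seeds carry almost no reserves, and in nature the protocorm is fed by a fungus. Hyphae enter its cells and form coils called pelotons, which are enclosed by plant membrane and later collapse and are digested. Plant genes for nutrient transport, membrane formation and wall remodelling are commonly discussed for this stage. The files pair no contig with a gene name, so neither such functions nor markers of protocorm tissue could be looked up among the raised contigs. Contigs are described by their length and values, and 2 identifiers are given.

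The libraries held 87991285 to 109869317 reads in the asymbiotic group and 174635344 to 216364014 in the mycorrhizal group. At 1 CPM a contig thus rested on at least 88 reads. Mycorrhizal replicate 3 stood apart, with no read on 13.2% of the 26515 contigs that met the length and asymbiotic conditions. The share was 0.317% in mycorrhizal replicate 1 and 0.524% in mycorrhizal replicate 2. A contig without reads in mycorrhizal replicate 3 could not be included. With that library left out, 257 contigs met the rule instead of 194, and of the 63 added, 6 had no read in it and 14 were below the highest asymbiotic CPM there. Labels call the samples of each group biological replicates and do not say whether they came from separate plates.

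In asymbiotic protocorms the raised contigs together took 0.183%, 0.202% and 0.196% of the reads in replicates 1 to 3. They took 3.82%, 4.56% and 3.88% in mycorrhizal replicates 1 to 3. The shares averaged 0.194% ± 0.00988 and 4.09% ± 0.407 (SD, n = 3 each), a ratio of 21.1. The groups were thus far apart in every library, as the choice of the contigs requires. In bulk tissue, more cells of a type and more RNA per cell cannot be told apart. The median raised contig had 5.18 CPM without the fungus and 76.5 CPM with it, each a median of group means. Its fold, the mean mycorrhizal CPM over the mean asymbiotic CPM, had a median of 11.6, with quartiles of 9.09 and 20.8 and a range from 5.22 to 661. Over all 26515 contigs that met the length and asymbiotic conditions the median fold was 0.945. These conditions are minimum values, so the other contigs are not matched to the raised ones. Their median asymbiotic level was 8.68 CPM.

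**Figure D1:**
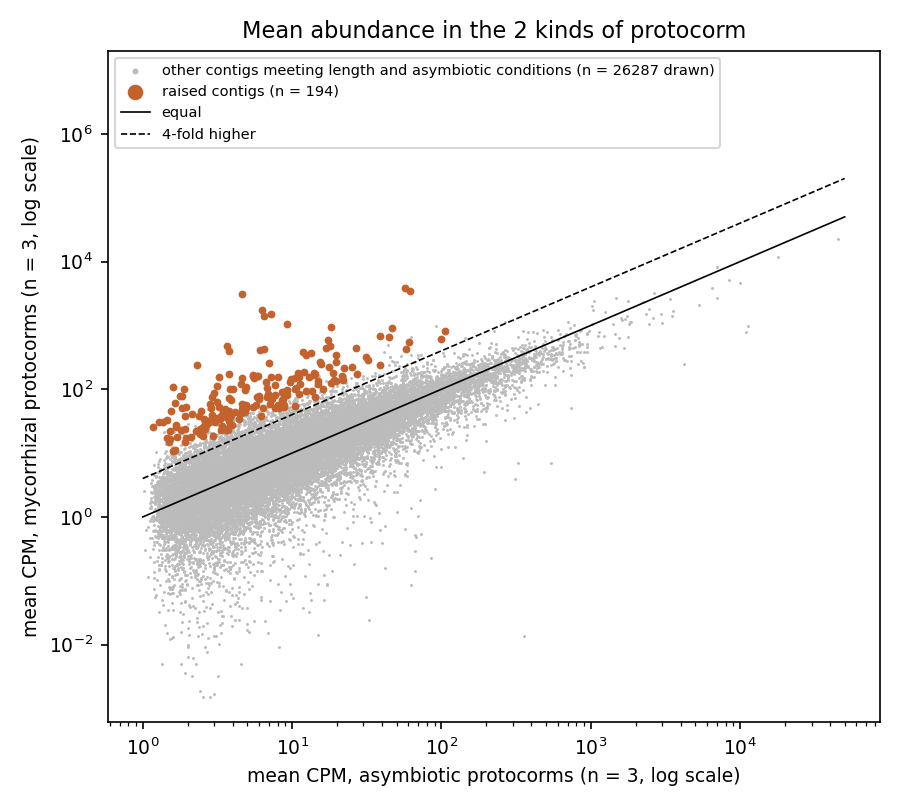
Mean CPM in mycorrhizal (vertical) against asymbiotic protocorms (horizontal), both on log scales, with 1 point per contig that met the length and asymbiotic conditions. The 194 raised contigs (orange) lie above the dashed 4-fold line, between 1.17 and 105 CPM in asymbiotic protocorms, and 34 other contigs with no mycorrhizal read are not drawn.

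The raised contigs were spread over the lower and middle range of asymbiotic abundance. Of the 194, 26 lay between 1 and 2 CPM in the asymbiotic mean, 71 between 2 and 5, 44 between 5 and 10, and 47 between 10 and 50. A further 5 lay between 50 and 100 CPM and 1 above 100 CPM. As a share of the contigs of the same abundance and length condition, this was 1.37% between 1 and 2 CPM, 0.520% between 10 and 50 CPM, and 0.0722% above 100 CPM. By fold, 36 contigs lay between 4 and 8, 91 between 8 and 16, 42 between 16 and 32, 13 between 32 and 64, and 12 above 64. The median fold was 18.2 in the 26 least abundant contigs and 8.50 in the 6 at 50 CPM or more. Between these it was 11.2 at 2 to 5 CPM, 12.0 at 5 to 10 and 12.0 at 10 to 50. Asymbiotic CPM is also the denominator of the fold.

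Per length, more raised contigs stood among the leading contigs in mycorrhizal than in asymbiotic protocorms. The 4-fold condition favours such a rise, so it is given as a description. By mean RPKM, which is CPM per kilobase of contig, none of the 194 was among the 100 leading contigs of asymbiotic protocorms, and 9 were among the 100 leading contigs of mycorrhizal protocorms. Among the first 1000 contigs, 1 raised contig was found in asymbiotic and 46 in mycorrhizal protocorms. Order among the raised contigs was partly kept between the groups. Across the 194, the log2 mean CPM of the 2 groups had a Pearson r of 0.74 and the mean CPM a Spearman rho of 0.77. Both are descriptions over contigs of shared libraries, with an asymbiotic floor that shapes them.

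The widest separation belonged to TRINITY_DN70417_c0_g1_i1, a contig of 1119 bp and the only contig of its Trinity gene. It stood at 5.37, 3.64 and 4.94 CPM in asymbiotic replicates 1 to 3, on 590, 320 and 509 reads. In mycorrhizal replicates 1 to 3 it stood at 2787, 4108 and 2323 CPM, on 602900, 811537 and 405691 reads. The lowest mycorrhizal library was 433 times the highest asymbiotic one, and each group stayed within a 2-fold range of its own. Its level went from 4.16 ± 0.807 to 2746 ± 828 RPKM (SD, n = 3 each), a fold of 661 and a log2 fold of 9.37. This took it from rank 22300 by asymbiotic RPKM to rank 12 by mycorrhizal RPKM. All of its reads, 100%, were unique to it.

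TRINITY_DN69744_c0_g1_i1, 737 bp long, reached the highest mycorrhizal level per length of the raised contigs. It stood at 9.44, 85.3 and 77.0 CPM in asymbiotic replicates 1 to 3 and at 4302, 4563 and 2733 CPM in mycorrhizal replicates 1 to 3. Asymbiotic replicate 1 was 9.04-fold below the highest asymbiotic library, the widest asymbiotic range of the 194, while the mycorrhizal libraries lay within 1.67-fold. Its level went from 77.7 ± 56.5 to 5246 ± 1344 RPKM (SD, n = 3 each), a fold of 67.5. It ranked 1672 by asymbiotic RPKM and 5 by mycorrhizal RPKM. Unique reads made up 43.6% of its total. In unique reads relative to the unique total of each library, it went from 4.97, 60.2 and 55.4 to 3301, 4003 and 2015 unique CPM. The other 3 contigs of its Trinity gene, of 768, 842 and 880 bp, were at 0.346 to 2.69 CPM in the asymbiotic libraries. In mycorrhizal libraries the 768-bp contig stood at 219, 542 and 98.0 CPM, and the 842-bp one at 81.0, 36.4 and 0.389 CPM. The 880-bp contig stood at 33.2, 28.7 and 132 CPM there. All of these but the 842-bp contig in mycorrhizal replicate 3 were above every asymbiotic library of the same contig. The 737-bp contig held 91.2% of the gene's reads in asymbiotic and 91.1% in mycorrhizal protocorms (means of 3 libraries).

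A few contigs carried much of the mycorrhizal reads. The 10 raised contigs with the most mycorrhizal reads held 45.9% of the group's reads on raised contigs and 16.5% in asymbiotic protocorms (means of 3 libraries). They made up 1.88%, 2.18% and 1.57% of all reads in mycorrhizal replicates 1 to 3, against 0.0208% to 0.0389% in the asymbiotic libraries. Besides the 2 named contigs, they were of 1187, 808, 1251, 1065, 860, 3538, 3592 and 557 bp.

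Second by reads was the contig of 1187 bp, the only one of its Trinity gene and 99.5% unique. It stood at 66.1, 64.2 and 53.2 CPM in asymbiotic and at 2615, 5052 and 2718 CPM in mycorrhizal replicates 1 to 3, a fold of 56.6. Unlike the 1119-bp contig it was well expressed without the fungus, at 51.5 ± 5.86 RPKM (SD, n = 3), and it reached 2917 ± 1161 RPKM with it (SD, n = 3). An 808-bp contig stood at 3.50, 7.64 and 7.75 CPM in asymbiotic and at 2120, 1322 and 1774 CPM in mycorrhizal replicates 1 to 3. That is a fold of 276, of reads that were 10.6% unique. By contrast, the 1065-bp contig, the only one of its Trinity gene, had 100% unique reads. It stood at 3.02, 8.67 and 7.87 CPM in asymbiotic and at 1765, 1320 and 1062 CPM in mycorrhizal replicates 1 to 3, a fold of 212. For this contig, mycorrhizal levels of 1298 ± 334 RPKM compared with 6.12 ± 2.87 RPKM in asymbiotic protocorms (SD, n = 3 each).

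The 860-bp contig had 5.14, 7.98 and 14.8 CPM in asymbiotic and 1307, 978 and 919 CPM in mycorrhizal replicates 1 to 3, a fold of 115. The 3538-bp and 3592-bp contigs were long and lower per length, at 264 ± 79.3 and 254 ± 72.8 mycorrhizal RPKM (SD, n = 3 each). Their folds were 51.5 and 19.5, and both were highest in mycorrhizal replicate 3. The 557-bp contig had the highest asymbiotic level of the 194, at 189 ± 130.0 RPKM (SD, n = 3), and reached 1467 ± 239 RPKM with the fungus (SD, n = 3). Its asymbiotic libraries stood at 23.8, 129 and 163 CPM and its mycorrhizal ones at 862, 922 and 667 CPM. With a separation of 4.10-fold it only just met the rule.

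**Figure D2:**
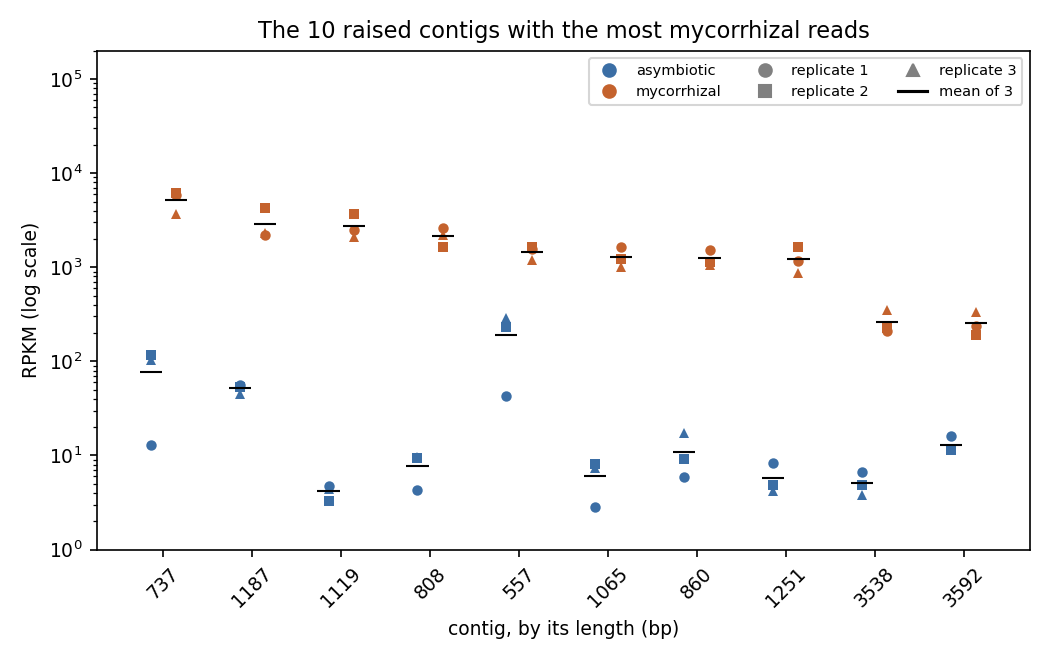
RPKM (log scale) of the 10 raised contigs with the most mycorrhizal reads, named by length and ordered by mean mycorrhizal RPKM, with 1 symbol per library and a bar at the mean of 3 libraries. Mycorrhizal means run from 254 to 5246 RPKM and asymbiotic means from 4.16 to 189 RPKM, and the groups do not overlap in any of the 10.

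The 10 widest separations between the groups overlapped with these leading contigs in 6 cases, being those of 1119, 808, 1065, 1251, 860 and 1187 bp. The other 4 were less abundant. A 1509-bp contig was the most even of them, at 4.20, 3.30 and 3.82 CPM in asymbiotic and 410, 399 and 374 CPM in mycorrhizal replicates 1 to 3, a fold of 105. The 1069-bp contig stood at 1.00, 5.84 and 4.18 CPM in asymbiotic and 343, 794 and 293 CPM in mycorrhizal replicates 1 to 3. The contigs of 1336 and 1110 bp had folds of 65.8 and 52.7. The 10 separations ran from 34.0-fold to 433-fold.

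At the edge of the rule the values ran on without a gap. The 5 contigs just inside had their lowest mycorrhizal CPM at 4.03 to 4.14 times the highest asymbiotic CPM, and the 5 just outside at 3.96 to just under 4 times. Just inside, a 1006-bp contig went from a mean of 2.42 to 20.1 CPM. Just outside, a 1513-bp contig went from 15.0 to 74.8 CPM. A further 642 contigs that met the length and asymbiotic conditions had a fold of at least 4 in their means. In these the lowest mycorrhizal CPM was under 4 times the highest asymbiotic CPM. Their lowest mycorrhizal library was replicate 1 in 307 of them, replicate 2 in 143 and replicate 3 in 192.

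Separation of the groups was found in both directions. Of the 26515 contigs, 3355, or 12.7%, were higher in every mycorrhizal than in any asymbiotic library, and 5071 were lower in every mycorrhizal library. With a 4-fold separation asked for, the numbers were 194 higher and 511 lower, and with 16-fold 30 higher and 168 lower. A floor was set on the asymbiotic libraries alone, so a contig could fall to no reads. With the floor set on the mycorrhizal libraries in place of the asymbiotic ones, 30 of 22065 contigs were at least 4-fold lower in every mycorrhizal library. The number of lower contigs thus depends on the group on which the floor was placed. The number of higher contigs with the floor moved is not given here.

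**Figure D3:**
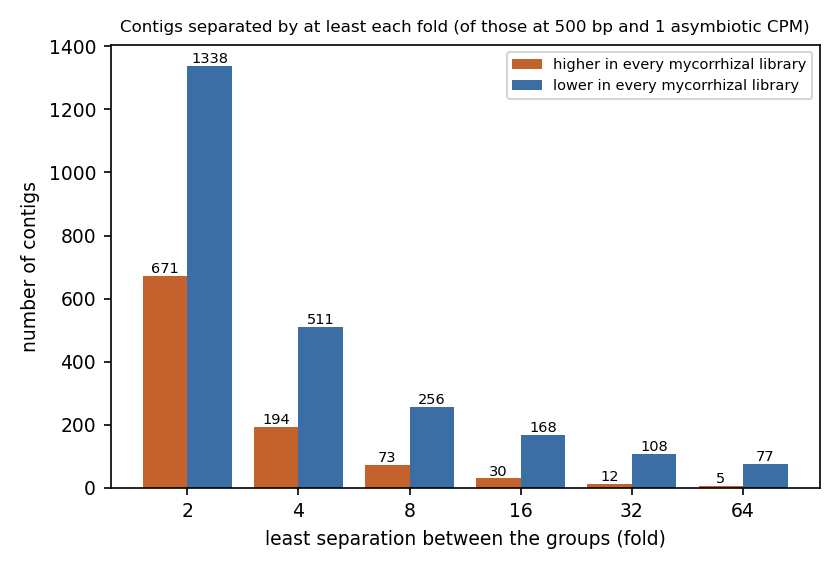
Number of contigs (vertical) separated between the groups by at least the fold on the horizontal axis, among the 26515 contigs of at least 500 bp and 1 CPM in each asymbiotic library. Orange bars are contigs higher and blue bars contigs lower in every mycorrhizal library, with 671 and 1338 at 2-fold and 5 and 77 at 64-fold.

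Libraries of one group differed in how strongly they carried the raised contigs. Within the asymbiotic group the highest library was a median of 1.81 times the lowest, against 1.64 times in the other contigs of the 26515. In the mycorrhizal group it was 1.68 times, against 2.64 times in the others that had a read in each of these libraries. The rule asks for a high value in every mycorrhizal library, which favours an even mycorrhizal group. A range of over 4-fold was found for 8 raised contigs among the asymbiotic libraries, 4.12% against 8.12% of the other contigs. Among the mycorrhizal libraries it was found for 4, or 2.06%, against 42.5% of the others. Unlike the median of 2.64, that 42.5% counts contigs with no read in some, but not all, of these libraries. No raised contig can be of that kind. The largest mycorrhizal range, 7.83-fold, was that of a 970-bp contig at 61.9, 485 and 177 CPM in replicates 1 to 3. Its asymbiotic libraries lay between 2.09 and 2.74 CPM.

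Mycorrhizal replicate 2 was the highest of its group for 88 raised contigs, replicate 3 for 73 and replicate 1 for 33. Replicate 1 was the lowest for 80, replicate 3 for 71 and replicate 2 for 43. As shares of the 194, replicates 1 to 3 were the highest in 17.0%, 45.4% and 37.6%, against 29.4%, 32.7% and 37.9% of the other contigs. They were the lowest in 41.2%, 22.2% and 36.6% of the 194, against 26.7%, 26.3% and 46.9% of the others. Mycorrhizal replicate 3 was at least 2-fold above both others of its group in 10 raised contigs, with medians of 36.3, 41.3 and 107 CPM in replicates 1 to 3. The same held for replicate 2 in 9 raised contigs and for replicate 1 in none. As shares of the 194, these are 5.15% for replicate 3 and 4.64% for replicate 2. In the other contigs of the 26515 the shares were 15.1% for replicate 3, 7.58% for replicate 2 and 7.47% for replicate 1. Over the 194 contigs, log2 CPM of mycorrhizal replicates 1 and 3 had a Pearson r of 0.92, and of replicates 2 and 3 one of 0.89. Over the 22972 contigs that met the length and asymbiotic conditions and had reads in all libraries, these were 0.56 and 0.56. The raised contigs were chosen in part by their values in mycorrhizal replicate 3, so these coefficients are not set against each other.

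In the asymbiotic group, 14 raised contigs of 557 to 1976 bp were at least 2-fold lower in replicate 1 than in both others. Their medians were 4.71, 12.6 and 13.9 CPM in asymbiotic and 447, 445 and 358 CPM in mycorrhizal replicates 1 to 3. Of the 10 raised contigs with the most mycorrhizal reads, 4 were among the 14, with the 737-bp and the 557-bp contig in the list. These 14 were singled out after their values had been seen. As a share, 14 contigs are 7.22% of the 194. Of the other contigs that met the length and asymbiotic conditions, 3.04% showed the same. Asymbiotic replicate 2 was the low library in this way for 13 raised contigs, 6.70% against 6.75% of the others. For replicate 3 it was 7, 3.61% against 3.10%. Asymbiotic replicate 1 was also the highest of its group in 46.4% of the 194, against 39.5% of the others.

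**Figure D4:**
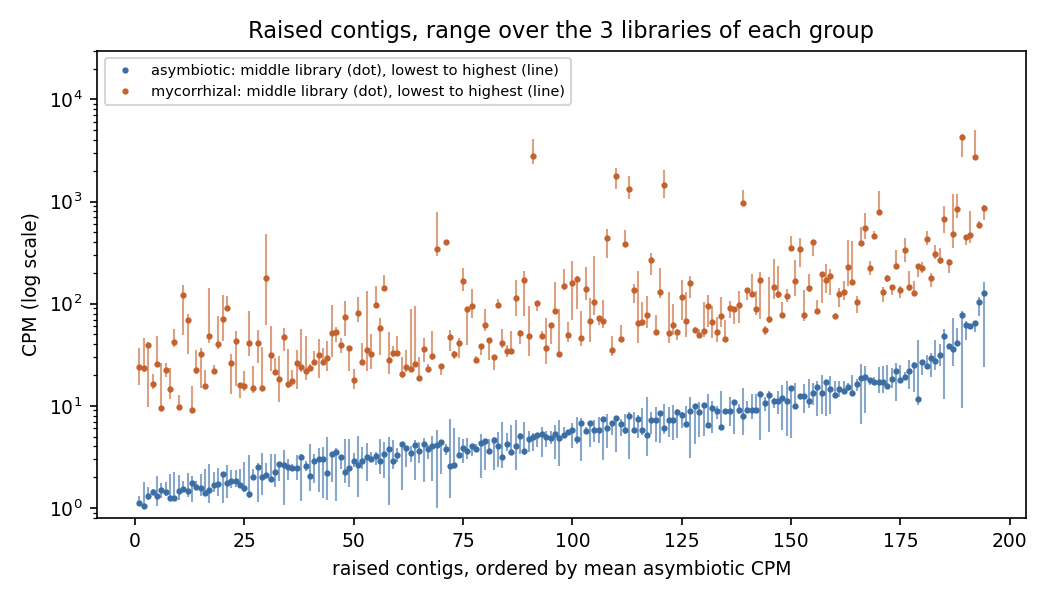
CPM (log scale) of the 194 raised contigs, ordered by mean asymbiotic CPM, with a dot at the middle library and a line from the lowest to the highest library of each group. Mycorrhizal means (orange) run from 10.6 to 3866 CPM and asymbiotic means (blue) from 1.17 to 105 CPM, and the 2 lines of a contig never overlap.

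The 4-fold condition did not use length or read uniqueness directly. It did ask for a high value in mycorrhizal replicate 3, where unique shares of the other contigs were unusually low. Read uniqueness can thus be tied to the choice of the contigs, which was not tested. The raised contigs had a median length of 1229 bp, with quartiles of 916 and 1821 bp and a range from 503 to 4141 bp. The other contigs that met the length and asymbiotic conditions had a median of 1475 bp. By length, raised contigs were 0.891% of those between 500 and 1000 bp, 0.810% between 1000 and 2000 bp, 0.502% between 2000 and 3000 bp and 0.388% above. Unique reads made up a median of 61.9% of a raised contig's total over all libraries, against 19.9% in the others. By library the median lay between 58.6% and 66.0% in the raised contigs. In the others it lay between 17.6% and 20.7% in 5 libraries and was 0.0342% in mycorrhizal replicate 3, among contigs with a read in the library. At least 99% of reads were unique in 71 of the 194, or 36.6%, against 15.4% of the others. The only contig of a Trinity gene was likewise found in 71 of the 194, against 17.8% of the others. No test was made of these differences, since contigs that share sequence are not independent.

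Because a contig's total includes reads that also match other contigs, the difference was looked at in unique reads, scaled by the unique total of each library. Of the 194, 155 had at least 1 unique CPM in each asymbiotic library. In 152 of these the groups did not overlap and the mycorrhizal libraries were higher. Over all 16178 contigs that met the length, total and unique asymbiotic minimums, this held for 13.2%. A 4-fold separation was kept in 132 of the 155, against 0.909% of the 16178. Total and unique reads share the same libraries and most of their reads, so nothing is read from these counts beyond the reads behind them. The median fold of the 155 was 12.0 in unique and 12.0 in total reads. The other 39 raised contigs had too few unique reads for this, and 11 of them had none. Among the 28 raised contigs with under 10% unique reads the median fold in total reads was 11.3, and the highest was the 210-fold difference of the 1251-bp contig.

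Several contigs of one Trinity gene were raised together in a minority of cases. Of the 174 Trinity genes, 158 had 1 raised contig, 13 had 2, 2 had 3 and 1 had 4. In the gene with 4, which were all its contigs, lengths were 1797, 1870, 2000 and 2073 bp and folds lay between 9.86 and 11.3. None of the 4 had a unique read, so they are not separate observations. One of the genes with 3 raised contigs had 7 contigs in all. Its longest raised contig, of 3540 bp, stood at 75.0, 105 and 117 CPM in asymbiotic and at 589, 648 and 568 CPM in mycorrhizal replicates 1 to 3. A 2519-bp contig of the same gene stood at 36.2, 72.3 and 24.7 CPM in asymbiotic and at 485, 348 and 1175 CPM in mycorrhizal replicates 1 to 3. The first was thus even over the mycorrhizal libraries and the second highest in replicate 3, with 2.38% and 4.23% of their reads unique.

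The raised contigs shared their Trinity genes with 232 other contigs, in 99 of the genes. Of these 232, 40 were under 500 bp and 125 longer ones were under 1 CPM in an asymbiotic library. The remaining 67 met the length and asymbiotic conditions but not the 4-fold one. Among the 67, the groups did not overlap in 29 that were higher with the fungus and 5 that were lower, and the median fold was 2.59. Of all contigs that met the length and asymbiotic conditions, 12.7% had no overlap in the higher direction and 19.1% none in the lower direction. Contigs of one gene share reads, so these counts are not independent of the raised contigs.

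In 4 Trinity genes a raised contig stood beside 1 or more contigs that were lower in every mycorrhizal library. The most abundant case was a gene whose 2183-bp contig stood at 1192, 1273 and 1181 CPM in asymbiotic and at 665, 659 and 754 CPM in mycorrhizal replicates 1 to 3. Its 2269-bp contig, which was raised, stood at 17.1, 7.93 and 17.3 CPM in asymbiotic and at 246, 128 and 170 CPM in mycorrhizal replicates 1 to 3. The raised contig went from 1.16% to 20.6% of the gene's reads (means of 3 libraries). Unique reads made up 4.24% of the first and 4.06% of the second, so both counts depend on how shared reads were assigned. In a second gene a 1258-bp contig went from 4.70, 1.60 and 2.56 CPM to 0.143, 0.233 and 0.0401 CPM. Its raised contig of 1816 bp went from 1.83, 1.58 and 1.59 CPM to 22.4, 20.3 and 35.5 CPM.

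Of the 194 raised contigs, 123 belonged to a Trinity gene of more than 1 contig. They held a median of 59.0% of their gene's reads in asymbiotic and 75.5% in mycorrhizal protocorms, each a mean of 3 libraries. In 40 of the 123 the share was higher in every mycorrhizal than in any asymbiotic library, and in 8 it was lower in every mycorrhizal library. The background was 9.79% and 12.5% of the 21759 contigs of such genes that met the length and asymbiotic conditions. A contig that rises takes a larger share unless its gene rises with it, so these shares are tied to the choice of the contigs. In 72 of the 123 the raised contig held over 50% of the gene's reads in both groups, and in 11 it went from under 50% to over 50%. Among the latter, the 1251-bp contig went from 31.4%, 19.5% and 17.8% in asymbiotic to 76.8%, 79.9% and 69.9% in mycorrhizal replicates 1 to 3. The 1110-bp contig went from 41.8%, 24.7% and 30.7% to 97.2%, 97.8% and 80.7% of its gene's reads.

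**Figure D5:**
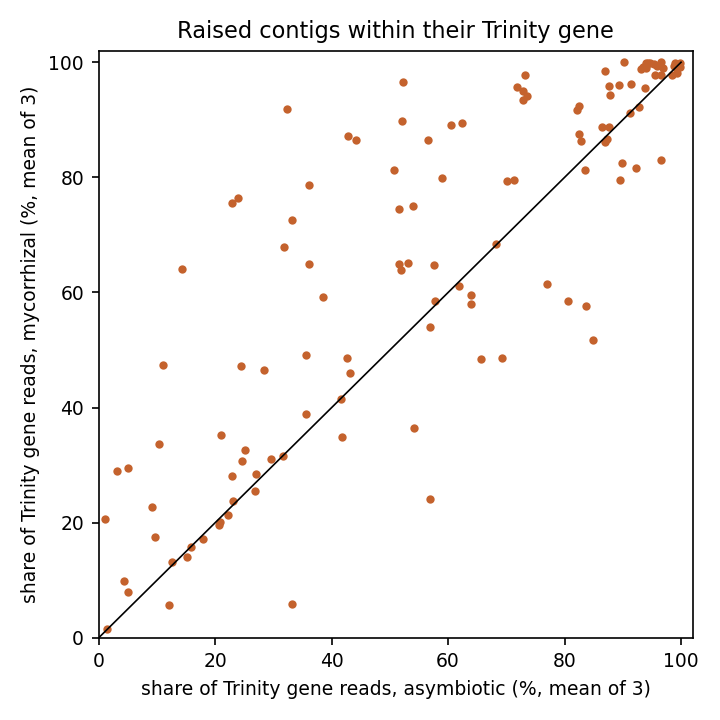
Share of the reads of its Trinity gene held by each of 123 raised contigs in asymbiotic (horizontal) and mycorrhizal protocorms (vertical), in percent and as means of 3 libraries, with a line of equal shares. The median went from 59.0% to 75.5%, and 72 contigs held over 50% in both groups.

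For most of the genes the difference was also present in the sum of all their contigs. With reads summed per Trinity gene, 151 of the 174 kept a 4-fold separation and 172 kept groups without overlap. Over all 16589 Trinity genes that met the length and asymbiotic conditions on summed reads, 1.12% had a 4-fold separation upward and 17.4% no overlap upward. The median fold of the 174 genes in summed reads was 10.7. In the 2 genes whose groups overlapped, the summed means differed by 0.711-fold and 1.25-fold, so there the raised contig differed from the gene as a whole.

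A test across all contigs was fitted as a background. EdgeR's quasi-likelihood test with Benjamini-Hochberg adjustment at 0.05 called 611 of 93242 contigs higher in mycorrhizal protocorms, 0.655%. Among the 26515 contigs that met the length and asymbiotic conditions it called 304, or 1.15%. The 304 became 616 without mycorrhizal replicate 3, 195 without mycorrhizal replicate 2, 134 without asymbiotic replicate 2, and 24 without both asymbiotic replicate 2 and mycorrhizal replicate 3. Of the 194 raised contigs the fit to all libraries called 174. Since the same libraries chose the 194, nothing is read from that count. The 174 became 115 without asymbiotic replicate 2 and 21 without both it and mycorrhizal replicate 3. DESeq2 called all 194 higher, against 1.95% of all contigs, and limma-voom 36, against 0.089%.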

How the data were processed

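The members and the tests were chosen with earlier results of these data known. Per the series text, reads of 150 bp from a HiSeq2500 were aligned to contigs that Trinity had assembled from the asymbiotic reads. Which aligner and counter were used, and whether strand was kept, is not stated in the labels or headers. Per the file headers, the authors deposited unique and total read counts and RPKM for each contig of a library, with identifiers and no gene names. The deposited counts are whole numbers and not normalized, and the deposited RPKM is the total count per kilobase of contig, scaled to a library of 1000000 reads. Contig length was recovered from RPKM and total count. It lay within 0.00338 bp of a whole number for all 188302 contigs with a read. CPM was total reads over the library sum. Unique reads were 51.4% to 55.7% of the total. A count of 0 allows up to 3 reads, 0.0139 to 0.0341 CPM, and such floors cover counting error only.

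The 2 identifiers are the member with the widest separation and the one with the highest mean mycorrhizal RPKM. Other members are given by rank. EdgeR 4.0.16 (R 4.3.3) was fitted to 93242 contigs kept by filterByExpr, with TMM factors of 0.923 to 1.22, robust quasi-likelihood estimation and no block. DESeq2 1.42.0 and limma 3.58.1 served as alternatives. Replicates differed by a chi-square per degree of freedom of 66.5 to 698, so none was a copy of another. Figures were drawn with matplotlib 3.10.9.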

Additional observations from a re-analysis of the deposited data

How the results depend on the processing

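The number of raised contigs was 194. It stayed within 1.5 times of this with TMM-scaled CPM (176, of which 169 were among the 194), RLE size factors (167, with 160 shared) and unique reads (173, with 132 shared). With reads summed per Trinity gene, 185 genes met the rule. Of these, 151 were among the 174 genes with a raised contig and 34 held none. The number of raised contigs was 671 with a 2-fold and 73 with an 8-fold line. It was 75 with an asymbiotic floor of 5 CPM, and 416 without both asymbiotic replicate 2 and mycorrhizal replicate 3. Leaving out 1 library removes a condition, so the number can only grow, and it lay between 217 and 335. It was 335 without asymbiotic replicate 1 and 297 without asymbiotic replicate 2. In total reads, the raised contigs held 0.194% of reads without the fungus and 4.09% with it. These shares lay between 0.190% and 0.199% and between 3.85% and 4.22% with 1 library left out. With unique reads the shares were 0.184% and 4.62%. Both moved by more than the SD between libraries, the first only narrowly. The median fold moved by less than the spread between replicates under all 9 alternatives run, from 11.2 to 13.0. That spread was the SD of the median fold over every pairing of 1 asymbiotic with 1 mycorrhizal library. Most of the alternatives left libraries out of the group means and kept the same 194 contigs. Such means move less than single libraries do, so this is a weak check. For the 2 named contigs another spread was used, from the variances of the contig's own log2 CPM in both groups, summed. Their log2 folds moved by less than it, under alternatives chosen after seeing the data. For the 737-bp contig this spread is wide because asymbiotic replicate 1 was far below the others, so it is a weak check. Its log2 fold was 6.08, and 5.57 without asymbiotic replicate 1.

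For edgeR's calls over all contigs, 611 higher and 232 lower, testing every contig with a read gave 1617 and 841, unique reads 1119 and 613, and sums per Trinity gene 1455 and 1045. DESeq2 gave 1822 and 2163, and limma-voom 83 and 148. With 1 library left out the calls lay between 381 and 1176 higher and between 100 and 721 lower, and without both asymbiotic replicate 2 and mycorrhizal replicate 3 they were 96 and 16. Of the raised contigs, limma-voom called 36, edgeR 21 without those 2 libraries, and edgeR 115 to 188 with 1 library left out. Of the 26515 contigs that met the length and asymbiotic conditions, the same fits called 51, 24 and 134 to 616. The same contrast chose the raised contigs, so nothing is read from their counts. The labels number replicates 1 to 3 in both groups without stating a shared batch, and deviations of same-numbered libraries correlated at 0.0093, -0.011 and -0.058 across 43620 contigs. Whether the numbers pair the libraries stays unknown, since deviations from means of 3 libraries cannot settle it. A replicate block gave 620 calls higher and 259 lower. It called 162 raised contigs and 296 of the 26515 contigs that met the length and asymbiotic conditions. The causes of these differences were not tested. Depth limits the least abundant raised contigs, which rest on about 88 to 110 reads in an asymbiotic library.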
